A study of Mus musculus with 12 samples.

Results

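Dicer1, Tarbp2, Eif2c2, Eif2c3, Ddx4 and Gtsf1 encode proteins of the small RNA pathways of the mouse oocyte. They were chosen by name, all 6 names were present in the table, and they are 6 of the 11298 genes measured. Eif2c2 and Eif2c3 are older symbols of Ago2 and Ago3. Their levels were followed from the fully grown oocyte to the 2-cell embryo in wild-type (WT) mice and in mice with a knockout (KO) of Pabpn1l.

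Small RNA pathways silence transcripts through an Argonaute protein that carries a short guide RNA. Dicer1 encodes the nuclease that cuts microRNA precursors and long double-stranded RNA into guides, and Tarbp2 encodes its double-stranded RNA-binding partner. Ago2 and Ago3 are Argonautes that carry these guides, and Ago2 is the one known for cleaving its targets in the mouse. In mouse oocytes Dicer1 is needed for meiosis, and small interfering RNAs made from endogenous double-stranded RNA are known to matter there more than microRNAs. Piwi-interacting RNAs (piRNAs) are germline guides that are made without Dicer and repress transposons. Ddx4, also known as mouse Vasa homolog, encodes an RNA helicase of the germ granule, and Gtsf1 encodes a small zinc-finger protein that binds Piwi proteins. Most of the RNA stored by an oocyte is removed between meiotic maturation and the 2-cell stage. Pabpn1l encodes a protein that binds poly(A) tails in the oocyte and early embryo and takes part in that removal.

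The libraries came from C57BL/6 mice. WT and Pabpn1l KO were each sampled as germinal vesicle (GV) oocytes, which were taken in vivo, and as 1-cell and 2-cell embryos, which were grown in KSOM medium. Each of the 6 groups had 2 libraries, and a library held 10 oocytes or embryos. The labels give neither the KO allele nor its design, do not say whether KO refers to the mother, the embryo or both, and do not say whether libraries came from separate animals or pools. The p-values therefore rest on the spread between the 2 libraries of a group, pooled over the 6 groups, and this spread may be technical. RNA was amplified by Smart-seq2, which copies RNA from its poly(A) tail with an oligo-dT primer, so less RNA and shorter tails cannot be told apart.

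Levels are FPKM, fragments per kilobase of transcript scaled to the mapped fragments of a library. Levels of genes of different length can thereby be compared, as far as the annotated length holds. A value of 1 FPKM is the floor of the deposited table, and an entry at the floor is an upper limit. Every deposited embryo value above the floor was a number of 6 significant digits multiplied by 1 factor per library. This factor was 1 in the 4 GV libraries. Among 1-cell libraries it was 0.269 and 0.212 for WT against 0.432 and 0.552 for KO, and among 2-cell libraries 0.116 and 0.123 for WT against 0.130 and 0.121 for KO. Levels and tests are therefore given as deposited, with the factor in them, and before the factor, where a level is a share of the library. Before the factor, the floor was up to 4.71 FPKM in 1-cell and 8.61 FPKM in 2-cell libraries. Read depth is unknown, because FPKM hold no counts.

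Pabpn1l itself stood at 220.1 and 203.9 FPKM in WT GV oocytes, against 7.23 and 4.98 FPKM with the knockout. The deposited 1-cell values were 16.4 and 12.2 FPKM (WT) against 2.57 and 4.55 FPKM (KO). In 2-cell embryos it lay near the floor in both genotypes, so it does not check those labels. Pearson's r between the libraries of a group was 0.971 to 0.993 over genes, which are not independent replicates. All 14 oocyte markers of the list were above the floor in GV oocytes, where they summed to 19352 to 20986 FPKM. Of the markers of cumulus and granulosa cells, 4 of 12 were in the table, and they summed to 72.3 to 85.4 FPKM in GV, 9.71 to 24.1 in 1-cell and 1.14 to 1.65 in 2-cell libraries as deposited. Their part in the stage differences below was not tested.

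The 3′ ends of 4 of the transcripts are shown first, because the poly(A) tail that Pabpn1l protein binds and that oligo-dT primes on is added just downstream of a polyadenylation signal. Each line gives the 30 bases around the last AATAAA of the final exon (3′ untranslated region), written 5′ to 3′ as DNA, with the signal in capitals. They come from GENCODE M21 on build GRCm38, whereas the deposited values were made on build mm9.
Dicer1, chr12:104687745-104687774, minus strand: ataattgtagtcAATAAAgttattgtctgt
Tarbp2, chr15:102523633-102523662, plus strand: gagggtataaggAATAAAcatggtgagctt
Eif2c3 (Ago3), chr4:126332734-126332763, minus strand: aagcagaaagctAATAAAgtttttaatcaa
Ddx4, chr13:112598344-112598373, minus strand: attttccttgcaAATAAAagatgaaacaca

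These 4 transcripts held AATAAA in their last 100 bases, as did 66.7% of the 9816 genes of the table with an annotated 3′ untranslated region of at least 100 bases. In Gtsf1, on chromosome 15, neither AATAAA nor the variant ATTAAA was found in this window, and ATTAAA was present in 22.1% of those genes. The letters TTTTAT, a form of the cytoplasmic polyadenylation element, occurred in Ddx4 among these and in 15.3% of all genes, searched on the transcript's strand. The 3′ untranslated regions differed in length, with 12742 bases in Eif2c3, 11064 in Eif2c2 and 3851 in Dicer1, against 612 in Ddx4, 334 in Tarbp2 and 171 in Gtsf1. Dicer1, Eif2c2 and Eif2c3 were thus longer than 94.5%, 99.8% and 99.9% of 5232 annotated genes that averaged at least 5 FPKM, and Gtsf1 was longer than 12.1%. Annotated ends can differ from those used in oocytes.

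In GV oocytes the 6 transcripts spanned more than 2 orders of magnitude, and none differed between the genotypes past the test. Gtsf1 held 870.0 and 1007 FPKM in the WT libraries, 1064 and 1167 in the KO libraries, and it ranked between 56th and 77th from the top of all genes. Tarbp2 followed with 81.4 and 63.0 FPKM for WT, 72.7 and 59.7 for KO. Ddx4 held 34.5 and 36.2 FPKM in WT, against 47.0 and 27.0 in KO, the widest replicate gap in proportion among the members in oocytes. Dicer1 was next in the order of group means, with 29.2 and 26.9 FPKM for WT, 26.8 and 31.9 for KO. Ddx4 and Dicer1 are neighbours whose KO libraries overlapped, whereas the other neighbours in the order did not overlap in any GV group. Eif2c3 held 11.28 and 11.31 FPKM in WT, against 11.7 and 11.99 in KO. Eif2c2 was the lowest, with 4.23 and 5.22 FPKM for WT, 4.65 and 5.05 for KO. The cleaving Argonaute was thus the scarcest member per annotated length. Eif2c2, Eif2c3 and Dicer1 also have the longest annotated 3′ untranslated regions. Where oocytes use shorter ends than annotated, FPKM of such genes would be too low, which was not tested.

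Of the 6 members, 0 were called between KO and WT oocytes by limma at an adjusted p under 0.05, against 0.584% of all genes called higher and 1.04% called lower, and 0 had an unadjusted p under 0.05. In the fit before the factor 0 members were called as well, against 0.876% and 1.69%, and 0 had an unadjusted p under 0.05. The share of all genes under the unadjusted threshold was not counted. The log2 fold changes ran from −0.12 ± 0.26 (SE) for Tarbp2 to 0.25 ± 0.19 for Gtsf1, each with an adjusted p of 1. The 95% intervals ran from −0.72 to 0.48 for Tarbp2, from −0.17 to 0.68 for Gtsf1 and from −0.31 to 0.43 for Dicer1, so differences inside these bounds were not resolved.

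**Figure D1:**
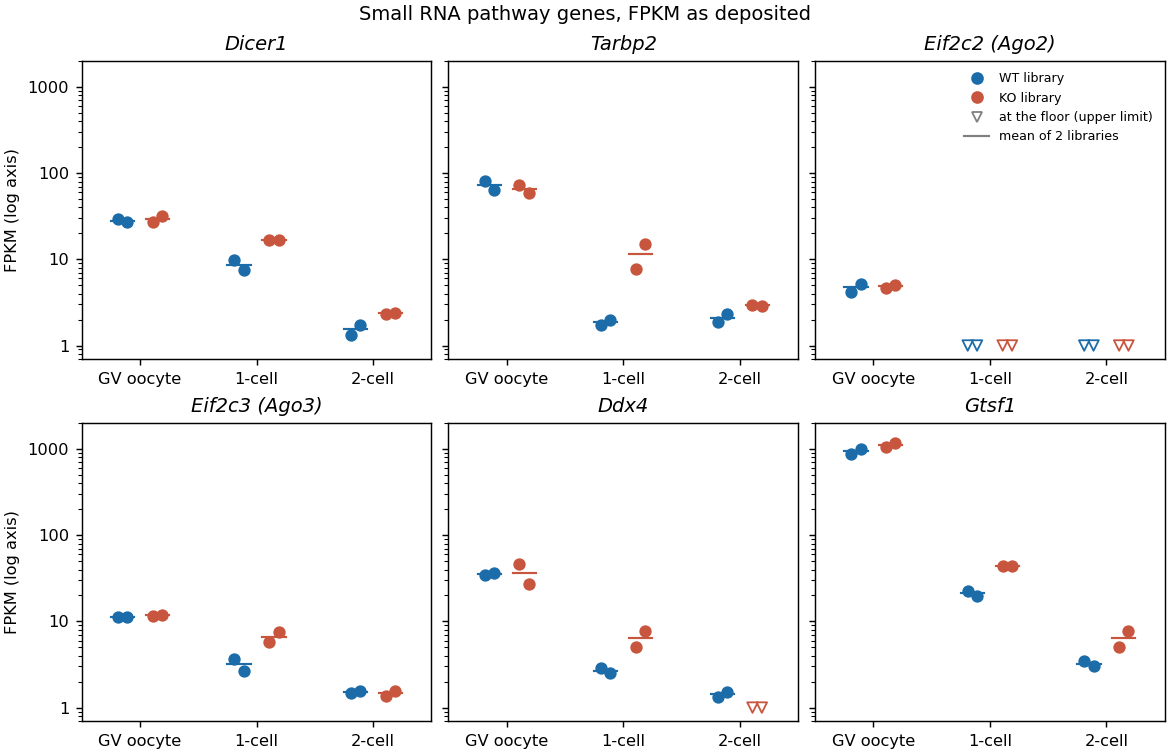
Deposited FPKM (log axis, shared by the panels) of each member in GV oocytes, 1-cell and 2-cell embryos; points are libraries, bars are means of 2, and triangles are upper limits at the floor. In 1-cell embryos every KO point of Dicer1, Tarbp2, Eif2c3, Ddx4 and Gtsf1 lies above the WT points, and Eif2c2 is at the floor in all 8 embryo libraries.

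**Figure D2:**
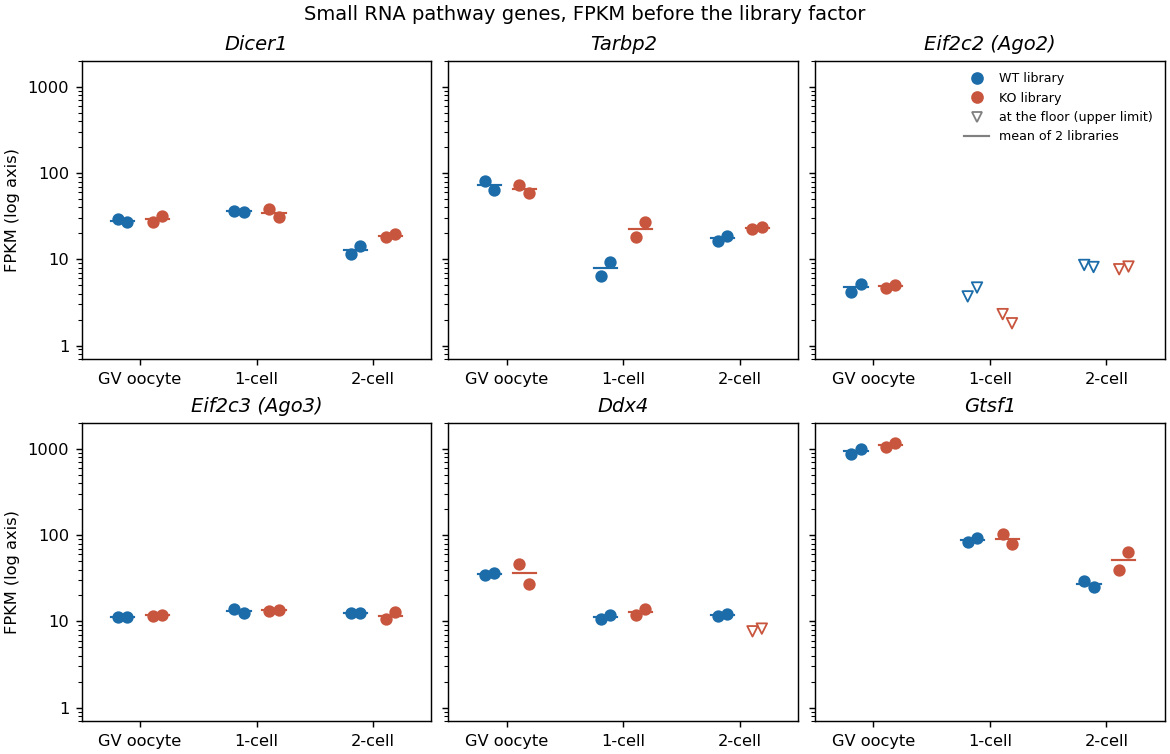
The same libraries with the library factor divided out, on the same log axis of FPKM. The genotypes overlap in 1-cell embryos for Dicer1, Eif2c3, Ddx4 and Gtsf1 and stay apart for Tarbp2; triangles sit at each library's own floor, which lies between 1.81 and 8.61 FPKM in embryos.

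From the WT oocyte to the WT 1-cell embryo the share of the library fell for Gtsf1, Tarbp2 and Ddx4, and no change in share was called for Dicer1, Eif2c3 and Eif2c2. As deposited, all 6 of 6 were called lower, as were 85.8% of all genes, and 0 higher, as against 0.0354%. The median gene above the floor changed by −1.57 on the log2 scale. Before the factor, 3 of 6 were called lower (Gtsf1, Tarbp2 and Ddx4) and 0 higher, against 26.7% and 11.4% of all genes, with a median change of −0.22. The account below gives the processing enzymes first, then the Argonautes and the germ-granule genes.

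For Dicer1 no change in share was called at the 1-cell stage, and a fall was called at the 2-cell stage. WT 1-cell libraries held 9.73 and 7.60 FPKM as deposited and 36.1 and 35.8 before the factor, or 30.9% and 128% of the oocyte mean. Both 1-cell values before the factor lay above both oocyte values, but the difference did not pass (log2 fold change 0.35 ± 0.15, limma adjusted p = 0.111). With only the 2 groups in the fit it was called (adjusted p = 0.0416). As deposited the change was −1.60 ± 0.16 (adjusted p = 1.18e-05), opposite in sign. WT 2-cell libraries held 1.34 and 1.74 FPKM as deposited and 11.5 and 14.2 before the factor. The fall from the 1-cell stage passed on both scales, with −1.93 ± 0.16 as deposited (adjusted p = 2.37e-05) and −1.42 ± 0.15 before the factor (adjusted p = 0.000143). In all, 3 members were called lower as deposited from the 1-cell to the 2-cell stage (Dicer1, Eif2c3 and Gtsf1), and 0 higher, against 29% and 9.45% of all genes. With the factor divided out, 2 were called lower (Dicer1 and Gtsf1) and 1 higher (Tarbp2), against 15% and 20.2%.

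Tarbp2, the partner of Dicer, fell before the 1-cell stage, and no later fall was called in WT. WT 1-cell libraries held 1.74 and 1.98 FPKM as deposited and 6.45 and 9.31 before the factor, against 63.0 and 81.4 in oocytes. The remaining level was 2.57% of the oocyte mean as deposited and 10.9% before the factor, and the fall passed on both scales (−4.67 ± 0.26, adjusted p = 3.44e-07, and −3.05 ± 0.24, adjusted p = 0.000106). At the 2-cell stage Tarbp2 held 1.89 and 2.30 FPKM as deposited and 16.2 and 18.8 before the factor. On the latter scale the 2-cell libraries lay above the 1-cell libraries and the difference was called (0.89 ± 0.21, adjusted p = 0.00938). It was not called without WT 1-cell replicate 1 (0.84, adjusted p = 0.0576) or WT 2-cell replicate 2 (0.79, adjusted p = 0.0722), and as deposited it was 0.11 ± 0.26 (adjusted p = 1).

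The ratio of Tarbp2 to Dicer1 within a library is free of the library factor. For WT it was 2.79 and 2.34 in oocytes, 0.179 and 0.260 at the 1-cell stage and 1.41 and 1.32 at the 2-cell stage. Tarbp2 thus exceeded Dicer1 per annotated length in oocytes, was below it in WT 1-cell embryos and exceeded it again in 2-cell embryos. The 3 stages did not overlap.

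**Figure D3:**
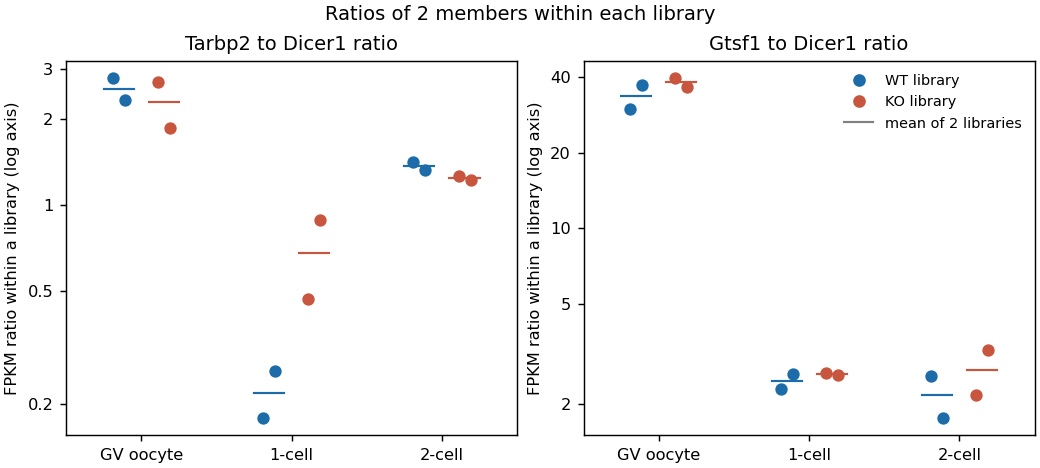
Ratio of Tarbp2 to Dicer1 and of Gtsf1 to Dicer1 in FPKM within each library (log axes), which no library factor can change; points are libraries and bars are means of 2. In 1-cell embryos the Tarbp2 ratio is 0.179 and 0.260 in WT and 0.468 and 0.884 in KO, whereas the Gtsf1 ratio is 2.29 to 2.66 in all 4.

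The 2 Argonautes could be followed unequally. Eif2c3 held 3.71 and 2.69 FPKM at the WT 1-cell stage, then 1.47 and 1.55 at the 2-cell stage, as deposited. Without the factor these values were 13.8 and 12.7, then 12.6 and 12.6, against 11.28 and 11.31 FPKM in oocytes. Eif2c3 was therefore the steadiest member before the factor, at 117% of the oocyte mean in WT 1-cell and 112% in WT 2-cell embryos, and neither step passed the test (0.21 ± 0.10, adjusted p = 0.154, and −0.06 ± 0.10, adjusted p = 0.994). As deposited both steps were called lower, at −1.56 ± 0.17 (adjusted p = 1.75e-05) and −0.73 ± 0.17 (adjusted p = 0.00676), the latter not without WT 1-cell replicate 1 (−0.56, adjusted p = 0.062) or with only the 2 groups in the fit (adjusted p = 0.0765).

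Eif2c2 was at the floor in all 8 embryo libraries. As deposited this gave a called fall of −1.51 ± 0.09 in WT (adjusted p = 5.1e-07) and −1.55 ± 0.09 in KO (adjusted p = 1.1e-06), which rests on the floor value. Before the factor the floors were 3.71 and 4.71 FPKM in WT 1-cell libraries, close to the oocyte values of 4.23 and 5.22, so a fall in WT was not detectable there. Without WT GV replicate 1 a fall was called (−0.12, adjusted p = 0.0281), in which the embryo value is again the floor. In KO 1-cell libraries the floors were 2.31 and 1.81 FPKM, under the KO oocyte values of 4.65 and 5.05. The KO 1-cell limits thus lay under the KO oocyte values on both scales, which the test before the factor could not resolve, since it uses the highest floor of the stage for all libraries (−0.04, adjusted p = 0.603).

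Both germ-granule genes lost most of their share before the 1-cell stage. Ddx4 fell to 2.90 and 2.49 FPKM in WT 1-cell libraries as deposited and 10.8 and 11.7 before the factor, or 7.62% and 31.8% of the oocyte mean. The fall passed on both scales (−3.30 ± 0.26, adjusted p = 2.17e-06, and −1.57 ± 0.23, adjusted p = 0.00184). It then held 11.5 and 12.3 FPKM before the factor in WT 2-cell libraries, with a change of 0.08 ± 0.22 from the 1-cell stage (adjusted p = 1). As deposited it held 1.34 and 1.52 FPKM, and the change of −0.60 ± 0.26 was not called (adjusted p = 0.102). It was called lower with a pseudocount of 0.1 (−0.87, adjusted p = 0.0331) and where genes averaging under 5 FPKM were left out (adjusted p = 0.0327).

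Gtsf1 went from 870.0 and 1007 FPKM in WT oocytes to 22.3 and 19.9 as deposited and 82.8 and 93.9 before the factor in WT 1-cell embryos. That left 2.25% and 9.41% of the oocyte mean (−5.41 ± 0.19, adjusted p = 6.32e-08, and −3.39 ± 0.24, adjusted p = 6.38e-05). Gtsf1 fell again to the 2-cell stage, to 3.44 and 3.05 FPKM as deposited and 29.6 and 24.9 before the factor, or 2.90% of the oocyte mean before the factor. The later fall also passed on both scales (−2.38 ± 0.19, adjusted p = 1.67e-05, and −1.66 ± 0.24, adjusted p = 0.000679). Gtsf1 was the only member called lower in both steps and on both scales. Relative to Ddx4, Gtsf1 measured 25.2 and 27.8 times as much in WT oocytes, 7.70 and 8.0 times in WT 1-cell and 2.56 and 2.01 times in WT 2-cell libraries.

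In 1-cell embryos Dicer1, Tarbp2, Eif2c3, Ddx4 and Gtsf1 were higher in KO as deposited, and Tarbp2 alone was called before the factor. As deposited, 5 of 6 were called higher and 0 lower in KO, against 52.7% and 0.0974% of all genes, with a median shift of 0.77 over genes above the floor. Before the factor, 1 of 6 was called higher and 0 lower, against 7.36% and 2.26%, with a median shift of 0.04. The difference between the scales follows from the library factors, which were larger in KO than in WT 1-cell libraries. Oocyte markers summed to 10245 to 12246 FPKM in KO and to 3703 to 4984 in WT 1-cell libraries as deposited, with 0 and 1 of 14 at the floor in both libraries of the group. Cumulus and granulosa markers summed to 19.3 to 24.1 against 9.71 to 14.0 FPKM as deposited. In each genotype 2 of the 4 were at the floor. Both marker sums carry the library factors, 0.432 and 0.552 in KO against 0.269 and 0.212 in WT. As deposited they do not by themselves show a larger share of either kind of RNA in KO. The part of either list in the member results was not tested.

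Tarbp2 reached 7.83 and 14.97 FPKM in KO 1-cell libraries as deposited, against 1.74 and 1.98 in WT. With the factor divided out these were 18.1 and 27.1 against 6.45 and 9.31. KO libraries exceeded WT libraries on both scales with no overlap, by 6.14 and 2.87 times in the means. The log2 fold change was 2.06 ± 0.26 as deposited (limma adjusted p = 0.000448) and 1.40 ± 0.24 before the factor (adjusted p = 0.0076). Without WT 1-cell replicate 1 the value before the factor was 1.17 (adjusted p = 0.0541). With the 1-cell libraries alone in the fit neither was called (adjusted p = 0.0857 and 0.241). Within libraries, Tarbp2 relative to Dicer1 was 0.468 and 0.884 in KO, above the 0.179 and 0.260 of WT. KO 1-cell embryos kept 34.2% of the KO oocyte share of Tarbp2, against 10.9% in WT.

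Dicer1 measured 16.7 and 16.9 FPKM in KO 1-cell libraries as deposited, against 9.73 and 7.60 in WT (0.89 ± 0.16, adjusted p = 0.00227, and 0.0799 with the 1-cell libraries alone in the fit). With the factor divided out the KO values of 38.7 and 30.7 lay on either side of the WT values of 36.1 and 35.8, and the sign turned (−0.06 ± 0.15, adjusted p = 1; 95% interval −0.41 to 0.30). Eif2c3 gave a like pattern, with 5.71 and 7.54 FPKM in KO as deposited (0.86 ± 0.17, adjusted p = 0.00313, and 0.129 with the 1-cell libraries alone) and 13.2 and 13.7 before the factor, against 13.8 and 12.7 in WT (0.02 ± 0.11, adjusted p = 1; interval −0.23 to 0.28).

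Ddx4 measured 5.07 and 7.78 FPKM in KO 1-cell libraries as deposited (0.98 ± 0.26, adjusted p = 0.0113), a call that was lost without WT 1-cell replicate 2 (0.90, adjusted p = 0.0723) or KO 1-cell replicate 2 (0.72, adjusted p = 0.0858), with the 1-cell libraries alone (adjusted p = 0.124) or with a pseudocount of 5 (0.56, adjusted p = 0.0506). Before the factor it measured 11.7 and 14.1 FPKM, against 10.8 and 11.7 in WT (0.18 ± 0.22, adjusted p = 1; interval −0.34 to 0.70). Gtsf1 measured 44.6 and 44.2 FPKM as deposited (1.04 ± 0.19, adjusted p = 0.00224) and 103.2 and 80.2 before the factor, around the WT values of 82.8 and 93.9 (0.04 ± 0.23, adjusted p = 1; interval −0.49 to 0.58). For Gtsf1 the share left of the oocyte level was 8.22% in KO and 9.41% in WT before the factor. The ratio of Gtsf1 to Dicer1, at 2.66 and 2.61 (KO) against 2.29 and 2.62 (WT), overlapped between the genotypes.

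**Figure D4:**
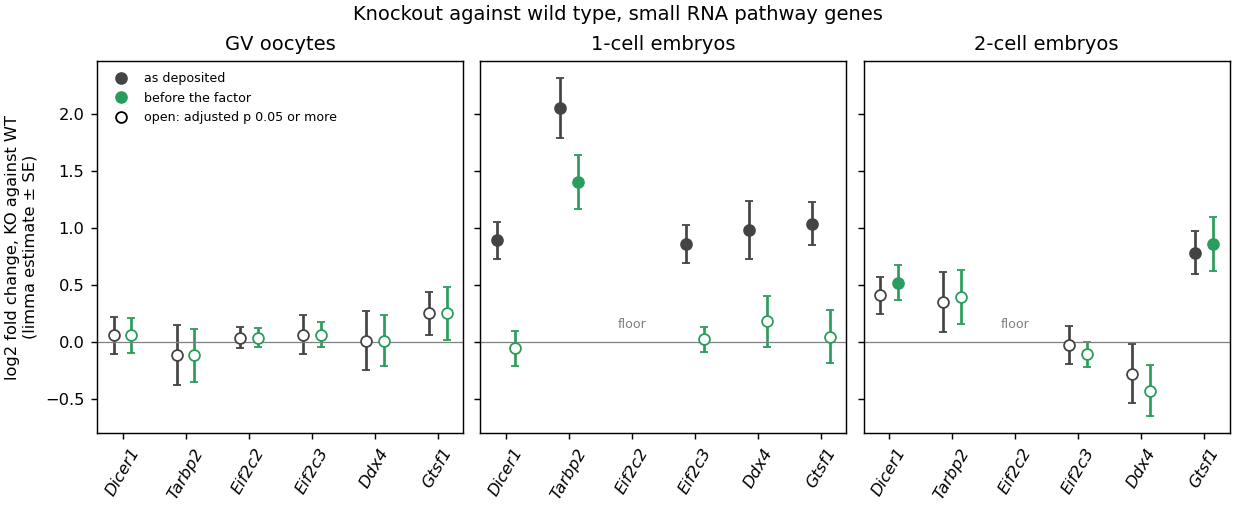
Log2 fold change of KO against WT (limma estimate ± SE, 2 libraries a group) for each member at 3 stages, as deposited and before the factor; filled points have an adjusted p under 0.05. In 1-cell embryos 5 points are filled as deposited and only Tarbp2 before the factor, and in 2-cell embryos Gtsf1 is filled on both scales.

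The step from oocyte to 1-cell embryo was also followed in KO by itself. As deposited 6 of 6 members were called lower and 0 higher, against 66.9% and 0.23% of all genes. With the factor divided out 3 of 6 were lower and 0 higher, against 20.7% and 9.18%. The 3 were Tarbp2 (−1.53 ± 0.24, adjusted p = 0.00339), Ddx4 (−1.40 ± 0.23, adjusted p = 0.00408) and Gtsf1 (−3.60 ± 0.24, adjusted p = 6.47e-05), the members also called in WT. With only the 2 groups in the fit Tarbp2 and Ddx4 were not called (adjusted p = 0.0671 and 0.121). From the 1-cell to the 2-cell stage in KO, 5 members were called lower and 0 higher as deposited, against 60.7% and 0.646% of all genes. Before the factor 2 were lower and 0 higher, against 16% and 9.85%. They were Dicer1 (−0.85 ± 0.15, adjusted p = 0.00395) and Gtsf1 (−0.85 ± 0.24, adjusted p = 0.0299). The call for Gtsf1 was lost without KO 1-cell replicate 1 (−0.67, adjusted p = 0.166) or KO 2-cell replicate 1 (−0.50, adjusted p = 0.151). With only the 2 groups in the fit neither gene was called (adjusted p = 0.105 and 0.29).

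The difference between the genotypes in these steps was tested as an interaction. For the step to the 1-cell stage, 4 of 6 members lost less and 0 lost more in KO as deposited, against 38.7% and 0.859% of all genes. In the values before the factor 0 of 6 were called, against 3.57% and 0.947%. Tarbp2 had the largest estimate, 2.18 ± 0.37 as deposited (adjusted p = 0.00421) and 1.52 ± 0.34 before the factor (adjusted p = 0.0625). Without KO 1-cell replicate 1 the latter was 1.80 (adjusted p = 0.0413). For the step to the 2-cell stage, 3 of 6 members fell more and 0 fell less in KO as deposited, against 35.7% and 0.239% of all genes. On the other scale 0 of 6 were called, against 14.8% and 5.29%. At an unadjusted limma threshold of 0.05 the counts before the factor were 1 of 6 (Tarbp2) for the step to the 1-cell stage and 3 of 6 (Dicer1, Tarbp2 and Gtsf1) for the step to the 2-cell stage. The share of all genes at that threshold was not counted, so these counts have no background to be set against.

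In 2-cell embryos Gtsf1, and before the factor also Dicer1, were called higher in KO. As deposited 1 of 6 was called higher and 0 lower, against 7.56% and 12% of all genes, and with the factor divided out 2 were higher and 0 lower, against 10.6% and 17.8%. Gtsf1 held 5.09 and 7.77 FPKM in KO, against 3.44 and 3.05 in WT, as deposited, and 39.0 and 64.1 against 29.6 and 24.9 before the factor. Both KO libraries lay above both WT libraries, and the means differed by 1.98 and 1.89 times. The log2 fold change was 0.78 ± 0.19 (limma adjusted p = 0.0171) and 0.86 ± 0.23 (adjusted p = 0.0251). Neither call held without KO 2-cell replicate 2 (0.52, adjusted p = 0.096, and 0.51, adjusted p = 0.124), WT 2-cell replicate 1 (0.85, adjusted p = 0.0542, and 0.98, adjusted p = 0.0618) or WT 2-cell replicate 2 (0.72, adjusted p = 0.104, and 0.74, adjusted p = 0.157). With the 2-cell libraries alone in the fit neither was called (adjusted p = 0.17 and 0.237).

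Dicer1 measured 2.35 and 2.36 FPKM in KO 2-cell libraries as deposited, above the 1.34 and 1.74 of WT, without passing (0.41 ± 0.16, adjusted p = 0.13). Before the factor it measured 18.0 and 19.5 against 11.5 and 14.2 FPKM and was called (0.52 ± 0.15, adjusted p = 0.0358). That call was lost without WT 2-cell replicate 1 (0.38, adjusted p = 0.184), KO 2-cell replicate 1 (0.57, adjusted p = 0.0769) or KO 2-cell replicate 2 (0.47, adjusted p = 0.152), and with the 2-cell libraries alone in the fit (adjusted p = 0.221). Before the factor, KO 2-cell embryos held 63.9% of the oocyte share of Dicer1 and WT 45.7%.

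Tarbp2 measured 22.7 and 23.9 FPKM in KO against 16.2 and 18.8 in WT 2-cell libraries before the factor, and 2.96 and 2.89 against 1.89 and 2.30 as deposited. Both KO libraries lay above both WT libraries on either scale, but the difference was not called (0.40 ± 0.24, adjusted p = 0.324, interval −0.15 to 0.94, and 0.35 ± 0.26 as deposited, adjusted p = 0.563). With quantile normalization it was called higher (0.76, adjusted p = 0.00791). Its ratio to Dicer1 was 1.26 and 1.22 with and 1.41 and 1.32 without the knockout. Eif2c3 held 10.6 and 12.7 FPKM in KO and 12.6 in each WT library before the factor (−0.11 ± 0.11, adjusted p = 0.725; interval −0.36 to 0.14). The ratio of Eif2c3 to Dicer1 was 0.588 and 0.654 for KO, against 1.10 and 0.890 for WT 2-cell libraries, with no overlap, and 0.341 to 0.445 in the 8 libraries of the earlier stages.

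Ddx4 was at the floor in both KO 2-cell libraries and above it in both WT libraries, at 1.34 and 1.52 FPKM as deposited and 11.5 and 12.3 before the factor. The KO floors before the factor were 7.68 and 8.25 FPKM, and both lay under the WT values, but the difference was not called (−0.28 ± 0.26 as deposited, adjusted p = 0.723, and −0.43 ± 0.22 before the factor, adjusted p = 0.24). It was called lower with quantile normalization (−0.95, adjusted p = 0.00339) and, before the factor, with the 2-cell libraries alone in the fit (adjusted p = 0.0367). Gtsf1 and Ddx4 thus lay on opposite sides of WT in the KO 2-cell libraries. Markers of the 2-cell embryo, of which 8 of 12 were in the table, summed to 54.0 and 65.0 FPKM in WT 2-cell libraries. In KO 2-cell libraries they summed to 12.9 and 25.6 FPKM, both as deposited. Of them 1 in WT and 2 in KO were at the floor in both libraries. The same markers summed to 472 to 497 FPKM in WT and 411 to 522 in KO GV oocytes. Their sum is thus not particular to the 2-cell stage. Oocyte markers summed to 1559 to 1746 FPKM in KO and to 1015 to 1046 in WT 2-cell libraries as deposited, with 1 and 2 of 14 at the floor in both. The part of these differences in the member results was not tested.

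Around the members, 25 genes of the microRNA and siRNA machinery and 31 of the piRNA pathway and germ granule were in the table, the members included. In GV oocytes 0 were higher and 1 lower in KO on either scale. Of all genes 0.584% were higher and 1.04% lower as deposited, and 0.876% and 1.69% before the factor. The 1 was Prkra, a relative of Tarbp2 that also binds Dicer. It measured 1.73 and 1.51 FPKM in WT and was at the floor in KO, on which the fold change rests (−0.39 ± 0.04, adjusted p = 0.00419).

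In 1-cell embryos 13 of 25 genes of the microRNA and siRNA machinery were higher in KO as deposited and 0 lower, against 52.7% and 0.0974% of all genes. Their median log2 fold change was 0.59, beside 0.57 over all genes. Before the factor 1 was higher, Tarbp2 itself, and 0 lower, against 7.36% and 2.26% of all genes. The median was 0, as over all genes. Genes at the floor in every library compared, 10 of the 25, count as 0 in it. Of the piRNA and germ-granule list, 22 of 31 were higher in KO as deposited and 0 lower, with a median of 0.92, against the same 52.7% and 0.0974% of all genes. Before the factor 4 were higher and 0 lower, with a median of 0.04, against 7.36% and 2.26%. Stk31, a Tudor-domain kinase of germ cells, led them, at 22.2 and 25.8 FPKM in KO against 4.99 and 3.63 in WT as deposited (2.24 ± 0.21, adjusted p = 8.8e-05, and 1.41 before the factor, adjusted p = 0.00319). Ddx25, a germ-cell RNA helicase, measured 4.30 and 6.35 FPKM in KO and 1.08 and the floor in WT (1.61 ± 0.20, adjusted p = 0.000342, and 1.04, adjusted p = 0.0105). Morc1, which represses transposons in male germ cells, measured 4.69 and 5.51 FPKM in KO and was at the floor in WT (1.61 ± 0.13, adjusted p = 5.33e-05, and 1.00, adjusted p = 0.000743).

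In 2-cell embryos the lists moved in both directions. Of the microRNA and siRNA list, 1 gene was higher and 1 lower as deposited, and 2 and 2 before the factor. Of all genes 7.56% were higher and 12% lower as deposited, and 10.6% and 17.8% before the factor. Ipo8, an importin known to bind Argonautes, was higher in KO, at 18.7 and 15.7 against 10.0 and 9.84 FPKM (0.73 ± 0.19, adjusted p = 0.0241). Jub (Ajuba), a LIM protein of silencing complexes, was at the floor in KO and at 1.88 and 2.38 FPKM in WT (−0.64 ± 0.07, adjusted p = 0.00017). Of the 31 genes of the piRNA and germ-granule list 3 were higher and 6 lower as deposited, against 7.56% and 12% of all genes. Before the factor 6 were higher and 8 lower, against 10.6% and 17.8%.

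Dazl, a germ-cell RNA-binding protein that controls translation, showed the largest rise of that list. It reached 54.8 and 77.9 FPKM in KO, against 8.68 and 9.56 in WT 2-cell embryos, as deposited (2.72 ± 0.23, adjusted p = 5.27e-05, and 2.75 before the factor, adjusted p = 3.37e-05). Tdrd1, a Tudor scaffold of the germ granule, was at 2.15 and 3.78 against 1.09 and 1.15 FPKM (0.87 ± 0.24, adjusted p = 0.0321, and 1.19, adjusted p = 0.00748). Lower in KO were Tex19.1, at 2.64 and 1.34 against 15.5 and 12.03 FPKM (−2.33 ± 0.39, adjusted p = 0.00286), and the spliceosomal Sm genes Snrpb and Snrpd3. Snrpb measured 1.16 FPKM and the floor in KO against 9.04 and 8.24 in WT (−2.21 ± 0.20, adjusted p = 8.7e-05). Snrpd3 measured 4.78 and 3.78 against 19.96 and 19.3 FPKM (−1.97 ± 0.18, adjusted p = 0.000103). Sm proteins are on the list as substrates of the arginine methyltransferase that also modifies Piwi proteins, and their main known role is in splicing.

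From WT oocytes to WT 1-cell embryos the 2 lists had different medians. Before the factor, 17 of 31 piRNA and germ-granule genes were called lower and 2 higher, with a median log2 change of −0.82, against 26.7% and 11.4% of all genes. Of the microRNA and siRNA machinery, 3 of 25 were lower and 4 higher, with a median of 0, as over all genes. Genes at the floor in every library compared, 8 of the 25 and 7 of the 31, count as 0 in these medians. Over all genes above the floor the median was −0.22. As deposited the counts of lower genes were 28 of 31 and 22 of 25, against 85.8% of all genes, with medians of −2.44 and −1.29 beside −1.49 over all genes. The difference between the lists was not tested.

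The genes most like each member over the 12 libraries were found among 5536 genes (5537 for Eif2c2) with a mean of at least 5 FPKM. As deposited, Pearson's r on the log2 scale was 0.999 for Dicer1 with Bmpr1b, 0.9998 for Eif2c2 with 2610306M01Rik, 0.998 for Eif2c3 with Smc1a, 0.997 for Tarbp2 with Ppp3cc, 0.998 for Ddx4 with Fkbpl and 0.999 for Gtsf1 with Setd4. Next came Fbxo28, Hint3, Map3k5, 5830415F09Rik, Mgat4a and Aven in the same order. The genes compared share each library's factor. They also passed the mean of 5 FPKM more readily through oocyte values, because embryo libraries carry factors under 1. Each r spans all stages, so a shared fall from oocyte to embryo raises it, and it was picked from the top of the search. Such an r is therefore no support for a link between the genes. Eif2c2 is at the floor in 8 of the 12 libraries, so its r rests on 4 oocyte values against a constant, and no r was computed for it before the factor. Before the factor the nearest were 3110009E18Rik for Dicer1 (0.983), Syf2 for Eif2c3 (0.944), Dnajb6 for Tarbp2 (0.977), Fkbpl for Ddx4 (0.986) and Setd4 for Gtsf1 (0.997), followed by C87499, Tcl1b2, Cops4, Spata5 and Vkorc1. Fkbpl and Setd4 were nearest on both scales. The weakest nearest match was that of Tarbp2 as deposited and that of Eif2c3 before the factor.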

How the data were processed

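The 12 Smart-seq2 libraries covered 3 stages (GV oocyte, 1-cell, 2-cell) and 2 genotypes, with 2 libraries for each of 6 groups. The authors deposited 1 table of FPKM values with 1 column for each library. TopHat2 2.1.1, Cufflinks 2.2.1 and build mm9 were used, per the submitters' processing notes. The table held 11298 complete genes and 1 incomplete last entry, which was left out, and no value under 1 FPKM. ERCC RNA was in the lysis buffer per the labels' protocols, and 0 ERCC entries were in the table.

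In each embryo library 1 factor was found that makes 100% of the values above the floor numbers of 6 significant digits (tolerance 0.01). Its power of 10 was chosen so that it lay at or under 1, and the totals before the factor then ranged from 413054 to 605495 FPKM. What the factor was based on is not given in the sources used here. For values before the factor, the highest floor of the stages compared was applied to all their libraries.

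The scale of all tests was log2(FPKM + 1), on which the change of low genes is understated. All 12 libraries entered each limma 3.58.1 fit in R 4.3.3, with 6 groups and an intensity trend, tested on simulated data. Contrasts as deposited came from 1 fit, and values before the factor were refitted for each set of stages compared, since the floor depends on it. Tests were two-sided, with Benjamini-Hochberg adjustment over all genes of a contrast, and 0.05 was the threshold on the adjusted p. The ± beside log2 values is the SE. It is pooled over the 6 groups, so libraries at the floor, which show no spread, lower it. A minimum of 1 FPKM in 2 libraries removed 0 genes. Alternatives were quantile normalization, median-ratio size factors, pseudocounts of 0.1 and 5, a mean of at least 5 FPKM, no intensity trend, only the groups compared, a replicate block and each library left out. Those around the values before the factor were added after the data were seen.

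All members are named. Of the pathway lists, up to 3 non-members with the largest rise and fall at each stage, called on both scales, are named, and for likeness the 2 genes with the highest r. The members and lists were chosen with earlier results of these data known. No 3′ end sequence is printed for Gtsf1, in which no signal was found, and that of 1 other member is not reported here.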

Additional observations from a re-analysis of the deposited data

Results flagged for a closer look

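Of the member results, 7 were flagged because a stage change differed between WT and KO by an interaction test in the deposited values. As deposited, the same test called 38.7% of all genes higher and 0.859% lower for the step to the 1-cell stage. For the step to the 2-cell stage it called 0.239% higher and 35.7% lower. Before the library factor it called 3.57% and 0.947% for the former step, 5.29% and 14.8% for the latter, and 0 of these 7. The 7 results are given as values. The factors of the libraries (0.269 and 0.212 in WT and 0.432 and 0.552 in KO 1-cell embryos) enter each of them.

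For the change from GV oocyte to 1-cell embryo, the KO minus WT difference in log2 change was 0.83 for Dicer1 (limma adjusted p = 0.0224), 0.80 for Eif2c3 (adjusted p = 0.0294), 2.18 for Tarbp2 (adjusted p = 0.00421) and 0.79 for Gtsf1 (adjusted p = 0.0433). Over all genes above the floor the median of this difference was 0.63. The call for Dicer1 was lost without WT GV replicate 1 (0.78, adjusted p = 0.0579) or WT 1-cell replicate 2 (0.67, adjusted p = 0.0809). Eif2c3 lost its call without WT GV replicate 1 (0.80, adjusted p = 0.066), WT GV replicate 2 (0.80, adjusted p = 0.0597), KO GV replicate 1 (0.78, adjusted p = 0.0551), KO GV replicate 2 (0.81, adjusted p = 0.0505), WT 1-cell replicate 2 (0.62, adjusted p = 0.107) or KO 1-cell replicate 2 (0.62, adjusted p = 0.0665). Gtsf1 lost it without any of the 8 libraries compared, with values of 0.68 to 0.89 and adjusted p of 0.0539 to 0.123. Ddx4, not called with all libraries (0.97, adjusted p = 0.0593), was called without KO GV replicate 1 (1.36, adjusted p = 0.0154) or KO 1-cell replicate 1 (1.24, adjusted p = 0.023). The call for Tarbp2 held without each library in turn.

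For the change from the 1-cell to the 2-cell embryo, the difference was −0.89 for Eif2c3 (adjusted p = 0.0194), −1.71 for Tarbp2 (adjusted p = 0.00789) and −1.26 for Ddx4 (adjusted p = 0.0256), beside a median of −0.68 over all genes above the floor. For Ddx4 the KO 2-cell value is the floor. Eif2c3 lost its call without WT 1-cell replicate 2 (−0.71, adjusted p = 0.0747), WT 2-cell replicate 2 (−0.86, adjusted p = 0.063) or KO 2-cell replicate 1 (−0.84, adjusted p = 0.0659). Ddx4 lost it without each of WT 1-cell replicate 2 (−1.18, adjusted p = 0.0863), KO 1-cell replicate 2 (−0.997, adjusted p = 0.0819), WT 2-cell replicate 1 (−1.31, adjusted p = 0.0703), WT 2-cell replicate 2 (−1.21, adjusted p = 0.0993), KO 2-cell replicate 1 (−1.26, adjusted p = 0.0738) and KO 2-cell replicate 2 (−1.26, adjusted p = 0.0737). Tarbp2 kept its call without each library in turn. Before the factor Tarbp2 (−0.82, adjusted p = 0.0916) was called without KO 1-cell replicate 1 (−1.10, adjusted p = 0.0249), and Gtsf1 (0.81, adjusted p = 0.144) without KO 2-cell replicate 1 (1.17, adjusted p = 0.0196).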

How the results depend on the processing

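FPKM hold no counts, so depth sets no interval here, and the floor hides Eif2c2 in embryos. The scaling decided most embryo results, and the cause of other changes was not tested. The shares of all genes called are given above for the 2 scales only. Member counts under the other settings therefore stand without a background and are not a result about the members. Counts of members called in KO against WT 1-cell embryos went from 5 as deposited to 1 before the factor, 1 with quantile normalization, 2 with median-ratio size factors (Tarbp2 higher, and Eif2c2 lower at −0.54, adjusted p = 0.00117, with every library at the floor) and 1 with only the groups compared (Gtsf1). It was 4 with a pseudocount of 5, where Ddx4 was lost. The count of 1 before the factor became 0 with only the groups compared, and 0 to 1 without a library. In 2-cell embryos the deposited count of 1 became 2 before the factor, 4 with quantile normalization (Dicer1, Tarbp2 and Gtsf1 higher, Ddx4 lower), 2 with median-ratio size factors (Dicer1 and Gtsf1 higher), 0 with a pseudocount of 5, 0 with only the groups compared and 0 to 1 without a library. There, the count of 2 before the factor became 1 with only the groups compared (Ddx4, −0.43, adjusted p = 0.0367), 1 with the replicate block (Dicer1 at 0.52, adjusted p = 0.055) and 0 to 1 without a library. For oocyte to 1-cell the count of 6 became 3 before the factor and 3 with median-ratio size factors in WT, and 3 before the factor in KO, where only the groups compared gave 1. For 1-cell to 2-cell in KO the count of 5 became 2 before the factor, and there 0 with only the groups compared and 1 to 2 without a library.

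For the genotype difference in the step to the 1-cell stage, the count of 4 became 0 before the factor, 1 with quantile normalization, 2 with median-ratio size factors (Tarbp2 higher, and Eif2c2 lower at −0.57, adjusted p = 0.0147, from floor values in embryos), 2 with only the groups compared and 1 to 4 without a library. The count of 0 before the factor became 1 with a mean of at least 5 FPKM (Tarbp2, 1.52, adjusted p = 0.01) and 0 to 1 without a library. For the step to the 2-cell stage the count of 3 became 0 before the factor and 1 to 3 without a library, and the count of 0 before the factor became 1 with only the groups compared (Ddx4, −0.61, adjusted p = 0.0452) and 0 to 1 without a library.

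Signs of called values turned only under the other scalings, given here before the factor, with quantile normalization and with median-ratio size factors. For KO against WT in 1-cell embryos these were −0.059, −0.20 and −0.11 for Dicer1, and in the latter scalings −0.099 and −0.026 for Eif2c3 and −0.16 and −0.0098 for Gtsf1. For oocyte to 1-cell in WT they were 0.35, 0.77 and 0.32 for Dicer1 and 0.21, 0.57 and 0.18 for Eif2c3, where the quantile values were called (adjusted p = 0.00202 and 0.00502). In KO they were 0.23, 0.48 and 0.15 for Dicer1 and 0.17, 0.38 and 0.083 for Eif2c3, with the quantile values called (adjusted p = 0.0269 and 0.0409). For 1-cell to 2-cell in KO they were 0.066, 0.33 and 0.11 for Tarbp2 and 0.073 with quantile normalization for Eif2c3. The genotype difference to the 1-cell stage was −0.12, −0.29 and −0.18 for Dicer1, −0.041, −0.19 and −0.094 for Eif2c3 and −0.21, −0.34 and −0.28 for Gtsf1. That to the 2-cell stage was 1.10 for Dicer1, 0.45 for Eif2c3 and 1.24 for Gtsf1 with quantile normalization, and 0.83 for Gtsf1 with median-ratio size factors. Before the factor this difference was 0.58 for Dicer1 and 0.81 for Gtsf1, against −0.48 and −0.26 as deposited, with none of these called (limma adjusted p = 0.107, 0.144, 0.13 and 0.522). Over single members, 597 values as deposited kept sign and call, and 67 lost and 22 gained a call without a turn of sign. The sign turned in 36 others with a call on either side, some of which also lost it, and in 19 with no call. Before the factor these counts were 370, 19, 8, 0 and 20.

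The labels share replicate numbers and state no pairing. Same-numbered libraries correlated at −0.400 to 0.166 in their deviations across genes, which cannot show whether they shared animals or a batch. With the replicate block the deposited counts were 0, 5 and 1 in GV, 1-cell and 2-cell KO against WT, and Gtsf1 lost its genotype difference in the step to the 1-cell stage (0.79, adjusted p = 0.058).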

Other observations

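The 3 members with the shortest 3′ untranslated regions were those called lower from WT oocyte to 1-cell embryo before the factor. This was chosen after the values were seen and is a description without a test. Gtsf1, Tarbp2 and Ddx4, with 171, 334 and 612 bases, changed by −3.39, −3.05 and −1.57 on the log2 scale, and Dicer1 and Eif2c3, with 3851 and 12742 bases, by 0.35 and 0.21. Eif2c2, with 11064 bases, was at the floor. The 5232 genes with an annotated region and a mean of at least 5 FPKM were split by its length into 4 bins of 1306 to 1311 genes. This mean was taken over deposited values, in which the embryo libraries carry factors under 1. Genes thus passed more readily through oocyte values, from which the stage changes below are measured. The medians of these changes therefore lend no support to the member pattern. The median change was −1.28 in the bin of shortest regions (10 to 328 bases), then −0.56, −0.09 and 0.03 in that of the longest. In KO the medians were −0.87, −0.21, 0.09 and 0.17. The KO against WT medians in 1-cell embryos were 0.17, 0.11, 0.04 and −0.01 in the same order.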
